A study of Homo sapiens with 4 samples.

Results

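The genes described here are the dispersed zinc finger genes, which are the protein-coding human genes with ZNF symbols that lie outside chromosomes 7, 10 and 19, where large arrays of such genes are found. A gene was kept when its counts over all samples summed to at least 40. Of 517 protein-coding ZNF genes in the table, 216 lay outside chromosomes 7, 10 and 19. The sum reached 40 in 193 of these and fell below it in 23. The rule read the total count and no difference between genotypes, and all 193 genes also passed the filter on low counts of the test, among 16675 tested genes of 28775.

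HEK293T is a transformed line of human embryonic kidney cells, and the samples were 2 MORC2 KO and 2 WT samples of this line, all otherwise untreated. Each MORC2 KO sample came from cells electroporated with Cas9 protein and 1 of 2 guide RNAs, gRNA 1 in replicate 1 and gRNA 2 in replicate 2, that were kept as a bulk population and not as a clone, and the target sites of the gRNAs overlap. Whether the WT cells were electroporated is not given in the sources used here. Polyadenylated RNA was sequenced, and the authors deposited the number of read pairs assigned to each gene. The comparison asks which genes change when MORC2, an ATPase that compacts DNA and takes part in gene silencing, is disrupted.

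The zinc fingers of these proteins are small folds held by a zinc ion, and arrays of them read DNA sequence. Many of the proteins also carry a KRAB domain, which recruits TRIM28 (also called KAP1) and through it the methyltransferase SETDB1, so that histone H3 lysine 9 is trimethylated at the bound site, often in a transposable element. The genes of this family are themselves marked by this modification over their long 3' exons in many cell types, and MORC2 works with the HUSH complex, which reads the same mark. Other ZNF proteins have no KRAB domain and act as activators, splicing factors or enzymes.

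The libraries summed to between 53970043 and 64312514 counts, and the biological coefficient of variation was 5.33%. Replicates were farther apart than counting noise allows, with a chi-square per degree of freedom of 16.8 for the MORC2 KO pair and 6.56 for the WT pair, so no sample was taken for a copy of another. The line's own genes VIM and NEFL were detected at 547.4 CPM and 63.5 CPM or more in every sample, where CPM are counts divided by the scaled size of the library. The defining genes of other cells, PTPRC (leukocytes), HBB (erythroid cells) and KRT5 (basal epithelium), had at most 2 counts in any sample, ALB and PECAM1 were at most at 0.212 CPM, and COL1A1, a fibroblast gene, was at 3.06 CPM or more in every sample. MORC2 itself, at chr22:31388696-31432332 of T2T-CHM13v2.0, had 3064 and 3637 counts in the edited samples and 5131 and 4669 in WT, which is -0.71 ± 0.06 (SE) on the log2 scale with an edgeR adjusted p of 1.37e-04. Its RNA was thus lower in both MORC2 KO samples than in both WT samples. Of its exonic bases, 23.3% are shared with MORC2-AS1 on the other strand, which had between 4 and 11 counts per sample.

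Among the 193 dispersed ZNF genes, 2 were called higher in MORC2 KO and 0 were called lower at an adjusted p under 0.05 (edgeR's quasi-likelihood test, Benjamini-Hochberg adjustment over all tested genes), where 0.588% of all tested genes were called higher and 0.03% lower. The called genes were ZNF232 and ZNF518B. At an unadjusted p under 0.05, 36 members were higher and 2 were lower, against 8.14% and 6.17% of all tested genes, and DESeq2 called 3 higher and 0 lower. The changes of the other members were small. The log2 fold change was positive in 143 of the 193 members (74.1%), against 51.5% of all tested genes, and its median was 0.06, against 0.01 over all tested genes. In 155 members the change was under 0.2 on the log2 scale in either direction, and it passed 0.5 in 4. Both MORC2 KO samples lay above both WT samples in 77 members (39.9%), where the same held for 24.1% of all tested genes, and both lay below in 18 (9.33%), where it held for 23.4%. Each MORC2 KO sample had a positive median against the WT mean, 0.04 in replicate 1 and 0.09 in replicate 2. When any 1 of the samples was left out, the median stayed between 0.04 and 0.08, and 94 members kept a positive and 27 a negative change in all 4 of these fits. In bulk RNA, more cells that express a gene and more RNA per cell cannot be told apart.

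Promoters are shown for the called genes, for ZNF594 (the neighbour of ZNF232) and for ZNF143 (the smallest p among members below WT). Each is the window from 250 bases before to 50 bases after a RefSeq start on GRCh38.p14, read 5' to 3' on the strand of the gene, and the capitals mark matches to any of 8 motifs, each searched on both strands. The TATA box was searched as TATAAA, the CCAAT box by the letters of its name and the GC box as GGGCGG. For the core that factors of the ETS family bind, the letters were CCGGAAG. Those for the factor NRF1 were GCGCATGCG, and the letters for the factor YY1 were AAGATGGCG. The motif of ZNF143 was searched as ACTACAATT and the E-box, bound by helix-loop-helix factors, as CACGTG. The window of ZNF232 is chr17:5123067-5123366 on the minus strand and is 1 of 3 listed for the gene, that of ZNF594 is chr17:5191819-5192118 on the minus strand, that of ZNF518B is chr4:10457377-10457676 on the minus strand, and that of ZNF143 is chr11:9460762-9461061 on the plus strand.
ZNF232: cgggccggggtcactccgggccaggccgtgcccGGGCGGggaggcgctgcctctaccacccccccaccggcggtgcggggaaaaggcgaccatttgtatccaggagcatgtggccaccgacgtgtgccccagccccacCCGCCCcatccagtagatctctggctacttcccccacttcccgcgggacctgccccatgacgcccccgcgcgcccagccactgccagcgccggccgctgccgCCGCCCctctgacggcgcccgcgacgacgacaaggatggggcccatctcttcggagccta
ZNF594: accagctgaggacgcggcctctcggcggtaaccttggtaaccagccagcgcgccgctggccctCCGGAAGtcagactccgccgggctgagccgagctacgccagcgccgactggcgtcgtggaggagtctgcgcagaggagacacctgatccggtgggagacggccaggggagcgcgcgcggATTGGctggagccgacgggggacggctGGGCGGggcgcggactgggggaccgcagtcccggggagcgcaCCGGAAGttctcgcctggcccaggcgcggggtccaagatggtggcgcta
ZNF518B: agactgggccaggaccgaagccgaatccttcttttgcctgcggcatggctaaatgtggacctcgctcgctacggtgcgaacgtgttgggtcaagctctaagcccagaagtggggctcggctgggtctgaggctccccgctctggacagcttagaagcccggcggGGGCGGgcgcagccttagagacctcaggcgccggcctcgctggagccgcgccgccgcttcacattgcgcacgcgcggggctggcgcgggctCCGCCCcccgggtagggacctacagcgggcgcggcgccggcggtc
ZNF143: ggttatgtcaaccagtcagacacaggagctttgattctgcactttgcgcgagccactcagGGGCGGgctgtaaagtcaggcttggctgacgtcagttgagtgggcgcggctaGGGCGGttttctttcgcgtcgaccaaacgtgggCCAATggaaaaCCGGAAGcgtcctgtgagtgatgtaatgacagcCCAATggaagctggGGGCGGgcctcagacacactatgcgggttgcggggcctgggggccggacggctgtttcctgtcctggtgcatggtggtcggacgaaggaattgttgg
The window of ZNF232 held 3 GC boxes and that of ZNF518B held 2, with none of the other motifs in either. ZNF594 had 2 ETS cores, a CCAAT box and a GC box, and ZNF143 had 3 GC boxes, 2 CCAAT boxes and an ETS core. RefSeq listed 210 windows for 156 of the 193 members. A GC box was in 59.0% of them, against 45.0% of all 35116 listed promoters and 64.8% of those of tested protein-coding genes. The ETS core was in 29.05%, against 10.3% and 15.5%. The motif of ZNF143 was rare, in 1.90% against 0.34% and 0.45%. Members with the ETS core in any window (57) had a median log2 fold change of 0.06, and those without it (99) had 0.06 as well. A match is a stretch of letters and not a measured binding site.

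ZNF232 codes for a zinc finger protein with a SCAN domain, a module through which such proteins pair. The gene (Entrez identifier 7775) spans chr17:4999106-5016496 of T2T-CHM13v2.0 and is read from the minus strand. ZNF232 was counted 1432 and 1502 times in the KO samples, compared with 840 and 788 times in WT. Both MORC2 KO samples were above both WT samples by more than the spread within either genotype. The scaled level averaged 23.3 ± 0.86 CPM in MORC2 KO against 14.5 ± 0.487 CPM in WT (each SD, n = 2), and the log2 fold change was thus 0.69 ± 0.07 (SE, 95% interval 0.53 to 0.85, edgeR adjusted p of 7.30e-04). The gene shares 11.7% of its exonic bases with USP6 and ZNF232-AS1, which run on the opposite strand. The counting did not use strand, and read pairs that overlap several genes were left out of the counts. ZNF232-AS1 had 347 and 401 counts in the KO samples, compared with 281 and 274 in WT, which is 0.27 ± 0.12 (SE) on the log2 scale with an edgeR adjusted p of 0.333. USP6 had 71 and 126 against 83 and 51, so its samples overlapped. How the read pairs left out over the shared bases bear on the change of ZNF232 was not tested.

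ZNF594, a gene with a single long finger exon and 21 finger motifs, follows ZNF232 on the same strand, from 5072882 to 5085217. It had 1216 and 1790 counts in the KO samples, compared with 1070 and 768 in WT. The genotypes did not overlap, but MORC2 KO replicate 1 lay close to WT replicate 1, at 20.3 CPM against 18.0 CPM. The log2 fold change of 0.55 ± 0.13 (SE) missed the threshold (edgeR adjusted p of 0.0988), and it was 0.33 without MORC2 KO replicate 2 and 0.72 without replicate 1. DESeq2 called the gene (adjusted p = 0.0165). Of the other tested genes between and beside this pair, ZFP3 on one side had 9 to 19 counts per sample, and SCIMP on the other had 11 to 24.

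ZNF518B, a protein reported to bind the histone methyltransferase G9a, is coded by a gene (Entrez identifier 85460) at chr4:10415856-10433398 on the minus strand, with no other tested gene within 200 kb. It shares no exonic bases with another gene. Its count reached 3585 and 4276 in the KO samples and 2750 and 2447 in WT. The WT samples were nearly equal after scaling, at 46.21 and 45.97 CPM, and both MORC2 KO samples lay above them, at 59.96 and 64.72 CPM. The log2 fold change was 0.44 ± 0.06 (SE, 95% interval 0.30 to 0.57, edgeR adjusted p of 4.45e-03). ZNF232 and ZNF518B were called in every fit that left out a sample and in every other alternative fit.

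**Figure D1:**
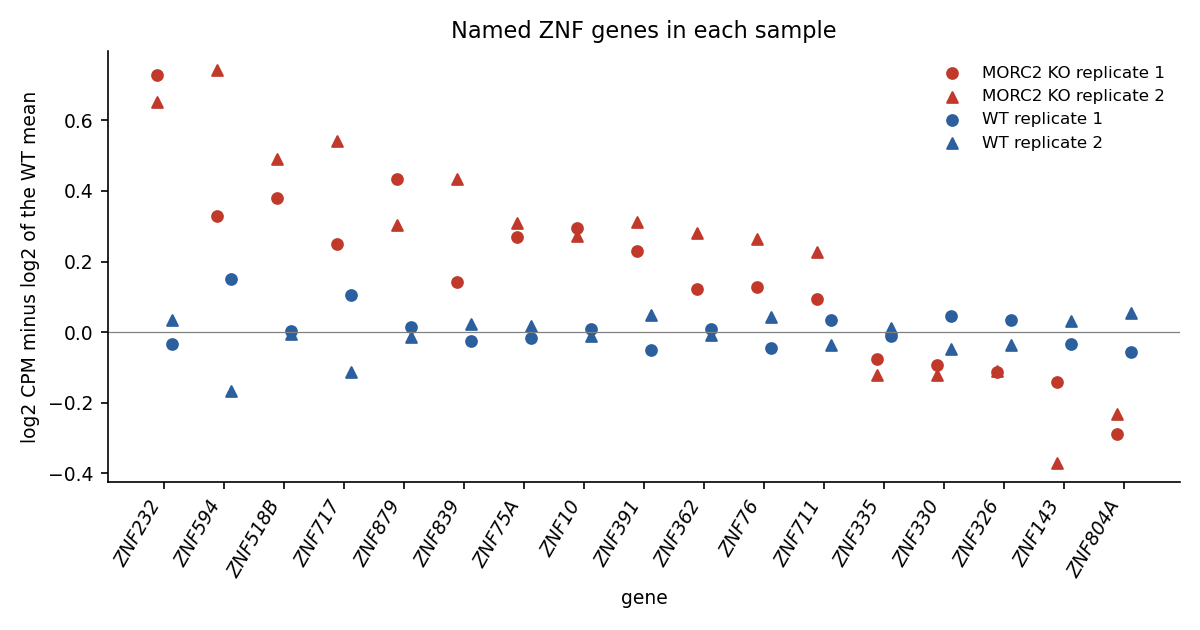
Scaled level of the called genes, the next higher and lower members and the named genes with a known role in each of the 4 samples, as log2 CPM minus the log2 of the WT mean, with 1 column per gene ordered by log2 fold change. The 4 genes with the highest levels and the 2 at the count limit are not drawn. Red marks are MORC2 KO and blue marks are WT. Both red marks lie above both blue marks for the 12 genes from ZNF232 to ZNF711 and below them for the 5 genes from ZNF335 to ZNF804A.

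The next higher members whose genotypes did not overlap were ZNF75A, ZNF594, ZNF717, ZNF391, ZNF879, ZNF839, ZNF10 and ZNF362, and none of these passed the threshold. ZNF75A, which codes for a KRAB protein on chromosome 16, reached 1923 and 2181 counts in the KO samples but 1568 and 1435 in WT, which is 0.29 ± 0.06 (SE) on the log2 scale with an edgeR adjusted p of 0.0775. Its replicates were close, at 32.16 and 33.01 CPM in MORC2 KO and 26.35 and 26.96 CPM in WT, and it was called when library size alone was used for scaling and with the GC content and length offsets. ZNF717, which codes for another KRAB protein and lies on chromosome 3, had 902 and 1218 counts against 811 and 624. Its MORC2 KO replicate 2 was the one farther from WT, at 18.4 CPM against 15.1 CPM in replicate 1, while WT was at 13.6 and 11.7 CPM. ZNF391 on chromosome 6 had 1143 and 1338 counts against 937 and 897, and ZNF879 on chromosome 5, a KRAB protein gene, had 469 and 474 against 349 and 306. In ZNF879 the MORC2 KO sample with gRNA 1 was the higher one, at 7.84 CPM against 7.17 CPM. ZNF839 on chromosome 14 had no finger motif in its longest coding sequence, and its 1323 and 1788 counts in the KO samples, compared with 1173 and 1085 in WT, again put replicate 2 farther from WT. ZNF362 on chromosome 1 had 2966 and 3660 counts against 2731 and 2413. The log2 fold changes of these 5 ran from 0.20 in ZNF362 to 0.40 in ZNF717, with adjusted p-values between 0.151 and 0.225 in edgeR. Without MORC2 KO replicate 2 the changes of ZNF717, ZNF839 and ZNF362 were 0.25, 0.14 and 0.12, and without replicate 1 they were 0.52, 0.42 and 0.27.

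Fewer members lay below WT, and none of them passed the threshold. ZNF143, an activator that binds promoters and the anchors of chromatin loops, had 1460 and 1378 counts in the KO samples, compared with 1567 and 1467 in WT. Both MORC2 KO samples were below both WT samples, at 24.4 and 20.9 CPM against 26.3 and 27.6 CPM. Its log2 fold change came to -0.25 ± 0.08 (SE), and the edgeR adjusted p to 0.223. The change was -0.14 without MORC2 KO replicate 2, and -0.38 without replicate 1. ZNF804A, a gene studied for its association with schizophrenia, was at 5.37 and 5.58 CPM against 6.30 and 6.80 CPM, which is -0.26 ± 0.11 (SE) on the log2 scale with an edgeR adjusted p of 0.333. Of its exonic bases, 8.70% are shared with an uncharacterised gene. ZNF326 (part of a complex that couples transcription to splicing), ZNF330 (a nucleolar protein) and ZNF335 (a component of a histone H3 lysine 4 methyltransferase complex) had log2 fold changes of -0.11, -0.11 and -0.10, each with a standard error of 0.06 and unadjusted p above 0.05.

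Some members have a known role, and a list of 30 such genes (repressors, transcription and chromatin factors, RNA and ribosome factors, and a mitotic factor) was drawn up from textbook knowledge. The list was limited to genes that are members by the rule. None was called, 16 had a positive log2 fold change, 3 were higher and 1 was lower at an unadjusted p under 0.05, and the median was 0.01. Among all tested genes, 51.5% were positive, and 8.14% were higher and 6.17% lower at that limit. Both MORC2 KO samples were above both WT samples in 6 and below in 7 of the 30, against 24.1% and 23.4% of all tested genes. ZNF10, also known as KOX1 and the source of the KRAB domain used in many artificial repressors, had 694 and 755 counts in the KO samples, compared with 567 and 500 in WT. Its replicates were nearly equal, at 11.6 and 11.4 CPM in MORC2 KO and 9.53 and 9.39 CPM in WT, which is 0.28 ± 0.09 (SE) on the log2 scale with an edgeR adjusted p of 0.212. ZNF76, the closest relative of ZNF143, was at 34.1 and 37.4 CPM in MORC2 KO and 30.2 and 32.1 CPM in WT, which is 0.20 ± 0.07 (SE) on the log2 scale with an edgeR adjusted p of 0.249. The log2 fold changes of these relatives had opposite signs, and neither passed the threshold. ZNF711, an X-linked gene that is mutated in intellectual disability, was at 71.5 and 78.3 CPM against 68.6 and 65.3 CPM, which is 0.16 ± 0.06 (SE) on the log2 scale with an edgeR adjusted p of 0.291.

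Silencing by KRAB proteins uses partners, and the data also cover these along with other silencing factors, such as the HUSH complex. Of 15 such genes (TRIM28, SETDB1, ATF7IP, CBX1, CBX3, CBX5, CHD3, CHD4, HDAC1, HDAC2, DNMT1, UHRF1, MPHOSPH8, TASOR and PPHLN1), 1 was called higher and 0 were called lower, and the median log2 fold change was -0.09. Among all tested genes, 0.588% were called higher and 0.03% lower. In 8 of the 15 both MORC2 KO samples lay below both WT samples, and in 3 they lay above, where 23.4% of all tested genes lay below and 24.1% above. The called gene was TASOR, a subunit of the HUSH complex, at 211.3 and 236.0 CPM in MORC2 KO and 133.5 and 126.4 CPM in WT, which is 0.78 ± 0.07 (SE) on the log2 scale with an edgeR adjusted p of 1.37e-04. TRIM28 was at 844.4 and 795.9 CPM against 848.6 and 896.0 CPM, so both MORC2 KO samples lay below both WT samples, which is -0.09 ± 0.07 (SE) on the log2 scale with an edgeR adjusted p of 0.565. SETDB1 was the other of these genes that was higher at an unadjusted p under 0.05 (log2 fold change 0.14), and CHD3 and CHD4, remodellers of the NuRD complex, were lower at the same limit (-0.16 and -0.17).

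Levels between genes are compared per kb of exonic length. In WT the members had a median of 4.02 CPM per kb, against 6.69 for all tested protein-coding genes, and ran from 0.0355 to 115.3. The highest was ZNF703, a corepressor gene on chromosome 8, at 115.3 CPM per kb in WT and 110.5 in MORC2 KO. ZNF664 followed at 77.7 and 76.5, then ZNF598, which codes for the ubiquitin ligase that marks collided ribosomes, at 52.1 and 52.7, and ZNF768 at 49.1 and 50.8. Their changes were within their errors. The log2 fold change was -0.06 (standard error 0.07) in ZNF703, -0.02 (0.06) in ZNF664, 0.02 (0.06) in ZNF598 and 0.05 (0.06) in ZNF768, and the sign of the first 3 turned with an offset or with a sample left out. At the other end, ZNF474 (17 and 8 counts in MORC2 KO, 14 and 19 in WT) and ZNF385D (31 and 25 against 16 and 24) were the members just inside the count limit, and ZNF311 (8 and 14 against 4 and 4) and ZNF660 (4 and 15 against 4 and 1) were just outside it.

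The members lie on 18 chromosomes, of which 16 carry at least 5 members and 187 of them in all. On 14 of the 16 the median log2 fold change of the members was positive, and it was above the median of the other tested genes of the same chromosome on 14. The highest median was on chromosome 3 at 0.15 (16 members, 12 positive), followed by the X chromosome at 0.11 (12 members, 11 positive), chromosome 8 at 0.10 (15 members, 11 positive) and chromosome 5 at 0.10 (10 members, 7 positive). Chromosome 3 also had the most members at an unadjusted p under 0.05, which was 7 higher and 0 lower, with 5 higher on chromosome 5 and 4 on chromosome 17. Of all tested genes, 8.14% were higher and 6.17% lower at that limit. Chromosome 16, with 30 members the richest, had a median of 0.04 and 2 higher at that limit. Chromosome 9 (11 members), chromosome 18 (9 members) and chromosome 20 (8 members) had medians of 0.06, 0.08 and 0.06 and no member at that limit. So few members cannot show a shortfall against the share of all tested genes. The median was -0.0001 on chromosome 2 (4 of 9 members positive) and -0.02 on chromosome 15 (3 of 7 positive). With the abundance offset both were positive at 0.01, and chromosome 15 was at 0.03 without MORC2 KO replicate 1. The called genes are on chromosomes 17 and 4, whose medians of 0.08 and 0.04 lay within the range of the other chromosomes.

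The order of the chromosomes was loose. The middle of the members on chromosome 3, from the lower to the upper quartile, ran from 0.001 to 0.25, which is wider than the distance between any pair of chromosome medians. The median was positive in both MORC2 KO samples on 14 of the 16 chromosomes and was larger in replicate 2 than in replicate 1 on 14. With a sample left out, the median of chromosome 3 lay between 0.08 and 0.13, that of chromosome 8 between 0.02 and 0.09 and that of the X chromosome between 0.09 and 0.12. Chromosome 3 was not the highest in 3 of these 4 fits. Without MORC2 KO replicate 1, chromosome 12 (0.13) and chromosome 18 (0.12) passed it. Without MORC2 KO replicate 2, the X chromosome (0.113), chromosome 17 (0.096) and chromosome 5 (0.080) passed it. Without WT replicate 2, the X chromosome (0.121) and chromosome 5 (0.103) did. The median of chromosome 4, with 5 members, lay between -0.02 and 0.10. For comparison, the ZNF genes with at least 40 counts had a median of 0.06 on chromosome 7 (29 genes, 0 called), 0.18 on chromosome 10 (16 genes, 4 called) and 0.16 on chromosome 19 (203 genes, 7 called, with 74 higher at an unadjusted p under 0.05). The difference between these and the dispersed genes was not tested. Of all tested genes, 0.588% were called higher, and 8.14% were higher at an unadjusted p under 0.05.

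**Figure D2:**
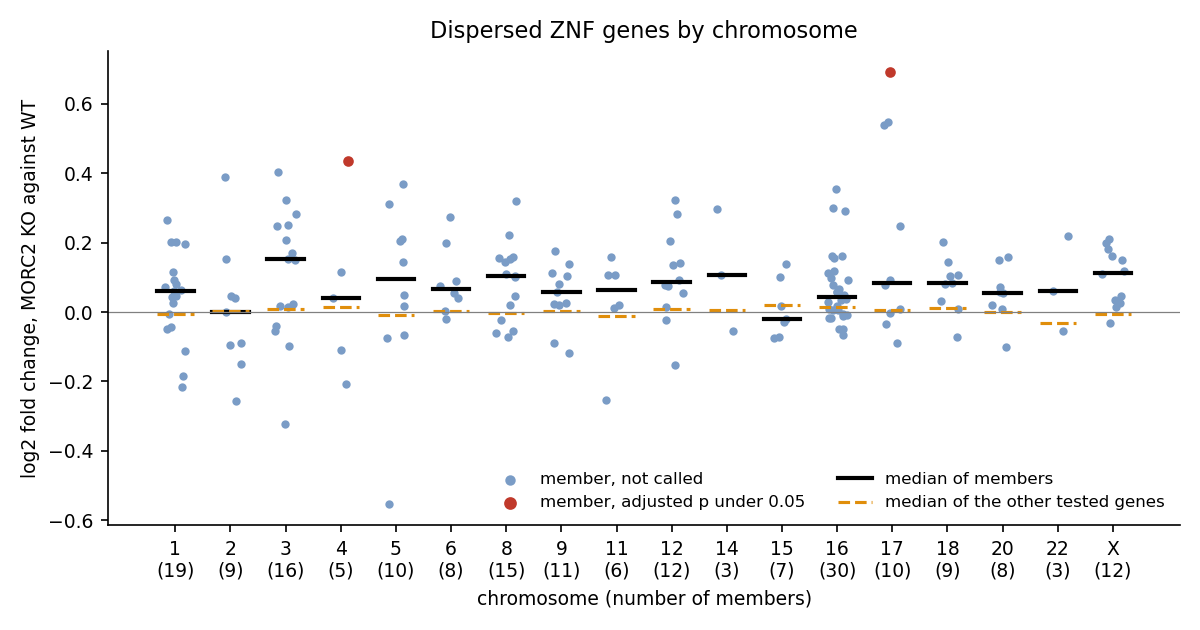
Log2 fold change of each of the 193 members, by chromosome, with the number of members in brackets. Black bars are the medians of the members, dashed orange bars are the medians of the other tested genes of the chromosome, and red points are ZNF518B (chromosome 4) and ZNF232 (chromosome 17), the genes called at an adjusted p under 0.05. The black bars lie above the orange bars on all chromosomes shown except chromosomes 2 and 15.

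The proteins were sorted by the KRAB A box, the part of the domain that binds TRIM28. A coding sequence of GENCODE 29 was found for 191 of the 193 members. At least 13 of 21 consensus residues of the box were found in 72 members, a smaller part of the box in 11, and fewer matches still in 108, which are counted as genes without the box. The 72 KRAB genes had a median log2 fold change of 0.11, with 60 positive, 18 higher and 0 lower at an unadjusted p under 0.05 and none called. The 108 genes without the box had a median of 0.04, with 72 positive, 17 higher and 2 lower at that limit, and they held both called genes. Of all tested genes, 51.5% were positive, 8.14% were higher and 6.17% lower at that limit, and 0.588% were called higher. The difference between the class medians came from many small changes, and it was not tested. So few called genes cannot tell the classes apart. Offsets that remove a trend with abundance brought the median of the KRAB genes to 0.07, and left that of the others at 0.04, while offsets on GC content and length gave 0.09 and 0.02. Without each sample in turn, the KRAB median lay between 0.08 and 0.12 and the other between 0.02 and 0.06.

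The number of finger motifs and the structure of the gene are further properties that the choice of genes did not use. Members had a median of 9 finger motifs (0 to 33). The median log2 fold change was -0.02 in the 6 members with no finger motif (3 positive), 0.02 in the 38 members with 1 to 4 fingers, 0.09 in the 62 with 5 to 9, 0.08 in the 59 with 10 to 14 and 0.06 in the 26 with at least 15. The longest exon, which in most of these genes carries the fingers and the 3' end, had a median of 2977 bases, and the median log2 fold change was 0.02 in the 11 members where it was under 1000 bases, 0.06 in the 32 where it was at least 1000 and under 2000, 0.09 in the 86 where it was at least 2000 and under 4000, and 0.06 in the 64 where it was longer. Across the 193 members, Pearson's r of the log2 fold change was 0.06 with the length of the longest exon, 0.02 with the number of fingers and -0.07 with GC content, as a description of genes that share their libraries and are not independent. The 43 members that share exonic bases with another gene and the 150 that share none each had a median of 0.06.

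Although these genes are called dispersed, 97 of the 193 had another member within 500 kb. These had a median log2 fold change of 0.10, with 77 positive and 25 higher at an unadjusted p under 0.05, and the 96 without one had 0.04, with 66 positive and 11 higher. Of all tested genes, 51.5% were positive and 8.14% were higher at that limit. Joining members in steps of at most 500 kb gave 14 groups of at least 3 members, with 71 members in all, and 13 pairs. All 14 groups had a positive median, every member was positive in 7 of them, and 36 of the 71 members had both MORC2 KO samples above both WT samples and 4 had both below, where 24.1% of all tested genes lay above and 23.4% below. None of the 14 held a called gene. The groups below were chosen after their values were seen.

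At the end of the long arm of chromosome 12, 7 KRAB genes (ZNF605, ZNF26, ZNF84, ZNF140, ZNF891, ZNF10 and ZNF268) lie between 132969080 and 133272083. All 7 had a positive log2 fold change, with a median of 0.14, and in 6 both MORC2 KO samples were above both WT samples. The largest change was that of ZNF891, at 14.65 and 18.15 CPM in MORC2 KO and 14.25 and 11.99 CPM in WT, where MORC2 KO replicate 1 was barely above WT replicate 1. Of the exonic bases of ZNF140, 79.4% are shared with ZNF891 on the other strand, and read pairs over both genes were left out of the counts. On chromosome 3, ZNF619, ZNF620 and ZNF621 lie next to each other between 40492190 and 40554832, and all 3 were higher at an unadjusted p under 0.05 with genotypes that did not overlap. ZNF620 had the closest replicates of these, at 32.96 and 32.1 CPM in MORC2 KO and 29.68 and 28.78 CPM in WT. A second group of chromosome 3 runs from ZNF445 to ZNF501, between 44447545 and 44752757, and ZNF852, ZNF502 and ZNF501 were higher there at the same limit, while ZNF35 stayed at 26.49 and 23.19 CPM against 24.01 and 25.06 CPM. On chromosome 5, ZNF354A, ZNF354B and ZNF879 were higher at the same limit, with log2 fold changes of 0.14, 0.21 and 0.37, but their neighbour ZNF354C had -0.07 (standard error 0.11). A positive log2 fold change was thus shared by most of these neighbours and not by each of them. In the largest group, 13 genes of chromosome 16 from ZNF48 to ZNF267, the median was 0.03 and 9 were positive.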

How the data were processed

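RNA was measured in 2 MORC2 KO and 2 WT samples of HEK293T, grouped by the sample labels. Read pairs were placed by the authors on T2T-CHM13v2.0 using Subread 2.0.6, and they deposited featureCounts counts per gene of the strict RefSeq annotation, without normalization. The recorded command counted read pairs, including those that map to several places, and used neither strand nor pairs that overlap several genes, so reads of near-identical genes are uncertain. The methods speak of default options, under which pairs that map to several places are left out, and which of these was applied rests on the recorded command. Columns of other samples numbered 0. Entrez identifiers were matched to RefSeq symbols for 28763 of 28775 genes.

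The members and gene lists were chosen with earlier results of these data known. Genes were filtered with filterByExpr (minimum count 10), scaled with TMM and compared with the quasi-likelihood F-test of edgeR 4.0.16 (older form, R 4.3.3), on genotype alone, with Benjamini-Hochberg adjustment over all tested genes. Standard errors (SE) were obtained from the F statistic, whose root is the ratio of the log2 fold change to its error, and CPM are TMM-scaled. The paper calls the WT samples independent replicates and the KO samples independent lines made with different gRNAs. It does not say what separated the WT replicates. The p-values measure the spread between these samples, and in WT it may be technical. There were 2 samples per genotype, and the parts of this spread and of depth in the errors of the members were not separated.

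Positions, exons and lengths came from the deposited table. GC content (of the longest transcript), finger motifs (2 cysteines and 2 histidines at the usual spacing) and KRAB residues came from GENCODE 29, promoters from RefSeq on GRCh38.p14, and no coordinates were converted. The named genes were MORC2, the called members, the 8 further higher and 5 lower members with the smallest p and no overlap between genotypes, the 4 highest per kb, those with a known role and p under 0.05, the members with the largest changes, and those at the count limit. Any other gene that is named was picked with its values in view. Alternatives were DESeq2 1.42.0, robust dispersions, edgeR's newer form, other scalings, filters and thresholds, loess offsets (span 0.3), members without shared exons, a replicate block and each sample left out.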

Additional observations from a re-analysis of the deposited data

How the results depend on the processing

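The 2 members called higher, ZNF232 and ZNF518B, were called under every alternative that tested them, and the direction of the median of the members stayed positive in each. The number called higher was 3 with DESeq2, with library size alone and with offsets on abundance, GC content and length together (chosen after seeing the data), 4 with offsets on GC content and length, 4 at an adjusted p under 0.10, 9 higher and 1 lower (ZNF143) without the filter on low counts, and 1 among the 150 members that share no exonic bases, where ZNF232 is left out by construction. The newer edgeR form, robust dispersions, RLE scaling, the abundance offset and at least 10 counts in every sample gave 2. With library size alone the median was 0.10, where the median of all tested genes also moved to 0.05, and 81.9% of the members were positive. With all 3 offsets the median was 0.04 and 66.3% were positive. Over the alternative fits, the share of positive members ran from 65.3% without WT replicate 2 to 81.9% with library size alone, against 74.1% in the main fit. The number of chromosomes with a positive median was 16 with the abundance offset, 14 with the GC content and length offsets and between 13 and 15 with a sample left out.

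Leaving out each sample gave between 2 and 27 members called higher and between 0 and 5 called lower, with a median between 0.04 and 0.08. In these fits the lone sample is assumed to vary like the other genotype. The highest numbers came without MORC2 KO replicate 1, where the spread is that of the WT samples alone and 1397 of all genes were higher and 2117 lower. Without WT replicate 1, 5 members were called higher (ZNF232, ZNF514, ZNF518B, ZNF594 and ZNF717).

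Same-numbered samples did not deviate together (correlation -0.124), and the labels do not say that a number marks a shared batch. With the replicate block, 6 members were called higher and 0 lower, and 7 higher and 1 lower with the block and the GC content and length offsets. Of all 16675 tested genes, 237 were called higher and 42 lower with the block, and 290 and 79 with the offsets too. With the pairing crossed, chosen after seeing the data, 25 members were called higher and 1 lower. In that fit 903 of all tested genes were called higher and 809 lower.

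Among the named genes, signs turned only where the change was within its error. ZNF598 was at -0.0226 with the GC content and length offsets and at -0.0225 with the block as well. ZNF664 was at 0.0173 with library size alone, 0.0507 with the abundance offset and 0.0424 with all 3 offsets, and ZNF703 was at 0.0121 and 0.0002 with the last pair. With a sample left out, ZNF598 ran from -0.0203 to 0.054, ZNF664 from -0.0644 to 0.0057, ZNF703 from -0.1671 to 0.0272 and ZNF385D from -0.0153 to 0.7277.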
